A study of Mus musculus with 18 samples.

Results

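Genes that run the cell cycle were followed in MIN6 cells under chemical ER stress, among them the cyclins, their kinases and inhibitors, the E2F and pocket proteins, the mitotic kinases, the spindle checkpoint, the anaphase machinery and the motors and scaffolds of mitosis. They were taken from a list of 50 gene symbols, and a gene was kept when it had at least 1 read in each of the 18 libraries, which left 43 of the 50 among 7794 such genes in all. MIN6 is a mouse insulinoma line that makes insulin and divides in culture, so it is a model of a beta cell that, unlike most beta cells of an adult islet, cycles. The cells received DMSO for 18 h (control), 200 µM cyclopiazonic acid (CPA) for 1 h (CPA1) or 200 µM CPA for 18 h (CPA18), and CPA1 therefore has no vehicle control of its own length. CPA blocks the SERCA pump that fills the ER with calcium. Poly(A) RNA (mRNA-seq) and ribosome-protected fragments (Ribo-seq) were sequenced from each of 3 independent experiments, which gives 3 libraries for each treatment and assay. The ratio of the 2 assays is called ribosome occupancy here.

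Progress through the cell cycle is driven by cyclin-dependent kinases. Cyclins D and E with Cdk4, Cdk6 and Cdk2 release E2F factors from the pocket proteins in G1, and the inhibitors of the p21, p27 and INK4 type hold these kinases back. Cyclins A and B with Cdk1 drive mitosis, in which the Aurora and Polo-like kinases build the spindle, the checkpoint proteins of the Bub and Mad families watch the kinetochores, and the anaphase-promoting complex (APC/C) with separase ends sister chromatid cohesion. Many of the mitotic genes are transcribed late in the cycle through a promoter element called the cell cycle homology region (CHR), often with CCAAT boxes nearby, whereas genes of S-phase entry often carry E2F sites. In a culture that cycles without synchrony, the share of cells in each phase and the amount of RNA per cell cannot be told apart in bulk libraries.

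The RefSeq promoter table (build GRCm38.p6) held 39 of the 50 genes. The 250 bases before each start were searched on both strands for TTTGAA, the letters of a CHR. They were also searched for the CCAAT box by the letters CCAAT. The third search was for GCGGGAA, an E2F-type site. In these promoters no match to any of these motifs overlapped a match to another. TTTGAA occurred in 9 of the 39 genes (23.1%) against 16% of all 32851 promoters in the table, CCAAT in 25 (64.1%) against 33.8%, and GCGGGAA in 4 (10.3%) against 3.82%. The 2 shares differ in unit. A gene counted when any of its promoters matched, and the 39 genes had 44 promoters, while the share of all promoters counts each promoter singly. Of the 8 genes with TTTGAA that could be tested, 6 had fewer footprints in CPA18 than in control at adjusted p under 0.05, and of the 25 tested genes with a promoter but without these letters, 6 did, where 6.35% of all genes tested were lower. For CCAAT it was 10 of 21 genes with the letters and 2 of 12 without. Neither contrast was tested, and several genes hold both motifs. Neither covers Ccna2, Ccnd2, Tpx2, Aurkb and Rad21, which also had fewer footprints at adjusted p under 0.05 but no promoter to search. Both contrasts count footprints. In mRNA-seq for CPA18 against control Ccnb2, Kif11, Top2a and Mki67 were also called lower among the 6 genes with TTTGAA. Cdk1 and Espl1 were not called there. Cdkn2c and Cenpe, whose promoters lack TTTGAA, were called lower in mRNA-seq too. A match of letters is a description of the window and shows no binding. The 30-base windows around every match follow for these 6 genes, with the match in capitals and the sequence 5′ to 3′ on the strand of the gene. Cdk1, Top2a and Mki67 hold 2 matches each. TTCAAA and TTCCCGC are TTTGAA and GCGGGAA read from the opposite strand.
Ccnb2, chr9:70421704-70421733, - strand: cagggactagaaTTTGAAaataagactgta
Cdk1, chr10:69352966-69352995, - strand: ctgattggctccTTTGAAcgtctacgtgca
Cdk1, chr10:69352913-69352942, - strand: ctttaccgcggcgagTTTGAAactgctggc
Espl1, chr15:102296254-102296283, + strand: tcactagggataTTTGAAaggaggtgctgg
Kif11, chr19:37376351-37376380, + strand: tcgtctccatttTTCAAAattgaggcgcgg
Top2a, chr11:99024351-99024380, - strand: ctattggtccatTTTGAAgattctcccgcc
Top2a, chr11:99024195-99024224, - strand: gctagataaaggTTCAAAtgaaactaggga
Mki67, chr7:135716478-135716507, - strand: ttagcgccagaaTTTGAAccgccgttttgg
Mki67, chr7:135716460-135716489, - strand: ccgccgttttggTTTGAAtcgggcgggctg
The other 2 genes with the element, Cdc20 and Bub3, passed the test in none of the comparisons. They are shown beside the 6 because their windows hold the same letters.
Cdc20, chr4:118437344-118437373, - strand: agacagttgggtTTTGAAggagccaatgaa
Bub3, chr7:131560315-131560344, + strand: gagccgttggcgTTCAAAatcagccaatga
GCGGGAA was found in the promoters of Cdk2, E2f3, Cdkn2c and Cdc6. Of these, Cdkn2c and Cdc6 could be tested, and their mRNA moved in opposite directions in CPA18.
Cdkn2c, chr4:109666763-109666792, - strand: ggggcccggccTTCCCGCtcccgcggcgcc
Cdc6, chr11:98908002-98908031, + strand: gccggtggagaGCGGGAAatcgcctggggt

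The libraries held 168129 to 4755030 reads, and the shallowest were the Ribo-seq libraries of CPA18 in experiments 1 and 2. The 43 genes together had 585 to 4808 reads in a Ribo-seq library and 1409 to 15263 in an mRNA-seq library. In the Ribo-seq libraries of CPA18 in experiments 1 and 2 the median gene of the 43 had 9 and 8 reads, so single values there are coarse. Lars2 alone took 4.75% to 54.8% of the mRNA-seq reads, and the insulin genes took a smaller part of the reads in CPA18 than in control. Both enter the library totals to which the values are scaled. On that scale the median of all 7794 genes stood at a log2 fold change of 0.36 in mRNA-seq and 0.39 in Ribo-seq for CPA18 against control. The medians of the cell cycle genes are set beside it below. Calls and fold changes of single genes are against 0 on that scale, not against the median gene. The treatment was visible in Ddit3, a transcription factor of the stress response, with a log2 fold change in Ribo-seq of 4.09 ± 0.40 (SE), adjusted p = 1.5e-20 in CPA1 and of 6.11 ± 0.35 (SE), adjusted p = 8.4e-53 in CPA18. All 9 beta cell markers were read in every library. Of 13 markers of other cell types, 10 were read in at least 1 library, Gcg was the most abundant of them, and Col3a1, Prss2 and Ptprc were at 0 in all 18. Their summed RPKM in Ribo-seq ran from 115 to 242 in control and from 108 to 161 in CPA18, and their part in the results was not tested.

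At 18 h of CPA the footprints of the 43 genes were lower as a group, while footprints over the whole transcriptome leaned the other way. The list that held the 43 genes was chosen with earlier results of these data known. In Ribo-seq 17 of the 43 genes fell and 3 rose against control (edgeR quasi-likelihood test, adjusted p under 0.05), where 6.35% of all genes tested fell and 24.6% rose. That is 39.5% of the 43 genes lower and 6.98% higher. Without experiment 1 there were 12 lower and 1 higher, without experiment 2 there were 7 lower and 1 higher, and without experiment 3 there were 10 lower and 2 higher. The share of all genes called in these fits is not given here. Their median log2 fold changes were -0.53, -0.46 and -0.34 for the 43 genes, against 0.35, 0.37 and 0.44 for all genes. With all 3 experiments the median of the 43 genes was -0.48 against 0.39 for all genes, and 35 of the 43 lay below the median gene. In mRNA-seq 8 genes fell and 5 rose, where 7.69% of all genes fell and 25.9% rose, with a median of -0.19 against 0.36. With TMM scaling, which places the median gene near 0, 22 genes were lower and 1 higher in Ribo-seq, with 12.2% and 11.4% of all genes. The same scaling gave 18 lower and 4 higher in mRNA-seq, with 18% and 13.4% of all genes. Against all genes, 128 other cell cycle genes leaned the same way as the 43 genes, but less. Of those, 11.7% were lower and 14.8% higher in Ribo-seq on the main scaling, with a median log2 fold change of 0.008. Relative to the median gene, the median of the 43 genes was -0.87. Other spindle and cytokinesis genes had -0.90, cohesin and condensin genes -0.77 and kinetochore and checkpoint genes -0.61. Other APC/C and SCF genes had -0.32 and checkpoint and p53 genes -0.30. Other pocket protein, E2F and MuvB genes had -0.07 and other cyclins, kinases and regulators -0.06.

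**Figure D1:**
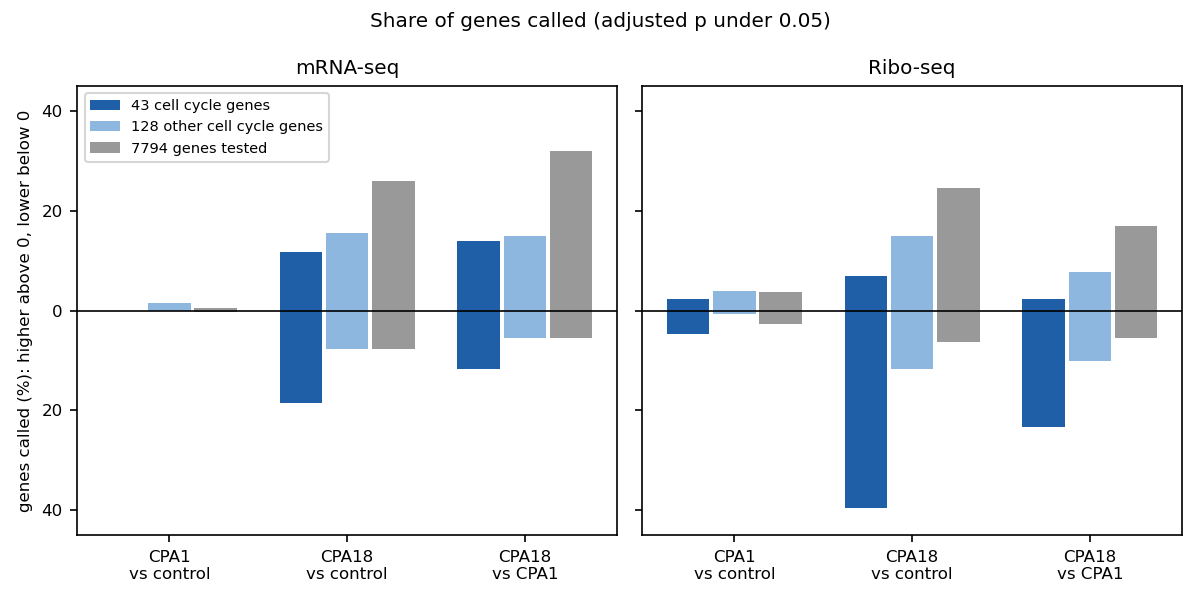
Share of genes called at adjusted p under 0.05, as percent, higher above the zero line and lower below it, in mRNA-seq (left) and Ribo-seq (right), for the 43 cell cycle genes, 128 other cell cycle genes and all 7794 genes tested. In Ribo-seq at 18 h against control, 39.5% of the 43 genes were lower against 6.35% of all genes.

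The mRNA-seq calls depended on matching treated and control libraries by experiment. Without the experiment as a block none of the 13 genes passed in mRNA-seq for CPA18 against control, with adjusted p-values of 0.053 to 0.37, whereas in Ribo-seq 13 genes were still called lower and 1 higher. The share of all genes called in that fit is not given here. Its Ribo-seq median log2 fold change was -0.50 for the 43 genes and 0.39 for all genes. The 6 Ribo-seq calls lost without the block were Bub1, Ccnd2, Cdkn1b, E2f4, Plk1 and Smc3, with adjusted p-values of 0.052 to 0.17. In the 3 experiments taken apart, the median log2 ratio of CPA18 to control footprints over the 43 genes came to -0.33, -0.69 and -0.61, while all genes had 0.46, 0.36 and 0.29. The RPKM of all 3 CPA18 libraries lay below those of all 3 control libraries for 17 genes in Ribo-seq (8.99% of all genes) and for 5 in mRNA-seq (5.34% of all genes). They lay above them for 5 genes in Ribo-seq (29% of all genes) and 4 in mRNA-seq (14.8% of all genes).

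**Figure D2:**
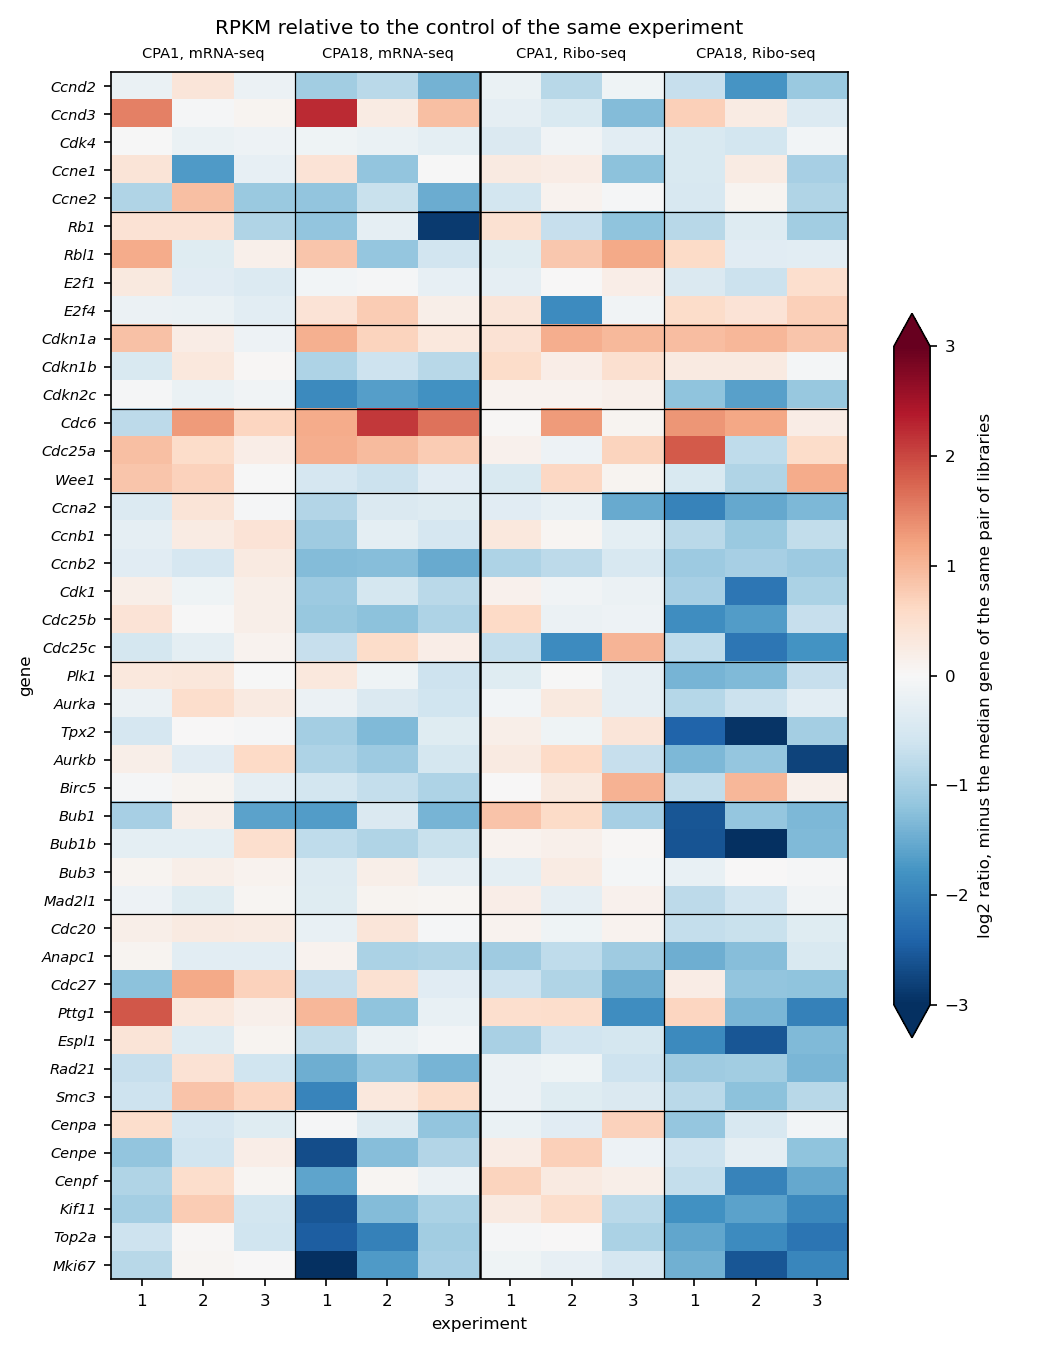
Log2 ratio of RPKM to the control of the same experiment, with the median of all 7794 genes in that pair of libraries subtracted, for 43 genes (rows, in the order of their roles, separated by lines) and the 3 experiments of each treatment and assay (columns). In the CPA18 Ribo-seq columns 28 of the 43 genes lie below the median gene in all 3 experiments, as do 25.7% of all genes.

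Of the 6 tested genes for spindle motors, centromere and mitotic chromosome proteins, 4 fell in each assay and none rose. Of all genes, 6.35% fell in Ribo-seq and 7.69% in mRNA-seq. Mki67 encodes the proliferation antigen Ki-67 that coats mitotic chromosomes. Its footprints were at 23.5, 24.6 and 9.69 in control, 23.5, 22.7 and 6.31 in CPA1 and 11.8, 5.36 and 3.04 in CPA18 (RPKM, reads per kilobase of transcript scaled to the library total, for experiments 1, 2 and 3, as in all series of values below). Its mRNA was at 8.55, 3.67 and 0.946 in control, 3.92, 3.08 and 1.05 in CPA1 and 0.877, 1.58 and 0.716 in CPA18. In each experiment both assays were lower in CPA18 than in control, but control and CPA18 overlapped across experiments, with experiment 3 low throughout. The log2 fold change was -1.57 ± 0.26 (SE), adjusted p = 6.0e-08 in Ribo-seq and -1.62 ± 0.36 (SE), adjusted p = 2.7e-04 in mRNA-seq. Top2a, the topoisomerase that untangles sister chromatids, had footprints of 34.3, 32.6 and 38.6 in control, 36.6, 36.1 and 18.3 in CPA1 and 16, 11.3 and 10.4 RPKM in CPA18. Its mRNA stood at 15.5, 8.16 and 3.18 in control, 8.18, 6.71 and 2.33 in CPA1 and 2.62, 2.82 and 2.35 in CPA18. The CPA18 values lay below all control values in both assays, with log2 fold changes of -1.53 ± 0.26 (SE), adjusted p = 8.8e-08 in Ribo-seq and -1.5 ± 0.34 (SE), adjusted p = 3.3e-04 in mRNA-seq. Kif11, the kinesin that pushes the spindle poles apart, was at 38, 33.8 and 46.5 in control, 49.7, 53.6 and 24.6 in CPA1 and 14.7, 14.2 and 14.9 RPKM in CPA18 in Ribo-seq. The 3 CPA18 values were close together and less than all control values. In mRNA-seq Kif11 was at 15.5, 5.27 and 2.91 in control, 6.29, 7.23 and 2.18 in CPA1 and 2.49, 3 and 2.3 in CPA18, where experiment 1 started far above the others. The log2 fold changes were -1.41 ± 0.25 (SE), adjusted p = 4.0e-07 in Ribo-seq and -1.26 ± 0.36 (SE), adjusted p = 0.0043 in mRNA-seq.

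Among the kinetochore proteins of this group, Cenpf, a large scaffold, fell in Ribo-seq, and the motor Cenpe fell in mRNA-seq. Cenpf footprints were at 5.14, 5.51 and 3.48 in control, 8.83, 7.32 and 3.63 in CPA1 and 4.28, 1.77 and 1.46 RPKM in CPA18, lower in CPA18 than in control within each experiment, and least so in experiment 1. Its log2 fold change was -1.0 ± 0.38 (SE), adjusted p = 0.031 in Ribo-seq and -0.09 in mRNA-seq (adjusted p = 0.87), with mRNA at 3.62, 1.75 and 1.12 in control, 1.59, 2.02 and 1.28 in CPA1 and 1.16, 2.57 and 1.5 in CPA18. Cenpe mRNA was at 3.44, 2.33 and 0.691 in control, 1.25, 1.27 and 0.879 in CPA1 and 0.515, 1.35 and 0.569 RPKM in CPA18, with a log2 fold change of -1.1 ± 0.44 (SE), adjusted p = 0.042. Its footprint level was 7.64, 5.92 and 6.5 in control, 9.62, 10.8 and 5.44 in CPA1 and 6.86, 6.3 and 3.47 in CPA18, with a log2 fold change of -0.38 (adjusted p = 0.43). Cenpa, the histone that marks centromeres, had log2 fold changes of -0.06 in Ribo-seq and -0.19 in mRNA-seq and did not pass the test. In Ribo-seq the calls of Mki67, Top2a and Kif11 held when any experiment was left out, while that of Cenpf without experiment 2 or 3, or the control libraries of experiment 2 (adjusted p = 0.23, 0.18 and 0.11) was lost. In mRNA-seq the calls were lost for Cenpe without experiment 1, 2 or 3, or the control libraries of experiment 2 (adjusted p = 0.31, 0.13, 0.053 and 0.13), Kif11 without experiment 1 (adjusted p = 0.21) and Mki67 without experiment 1 (adjusted p = 0.065).

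**Figure D3:**
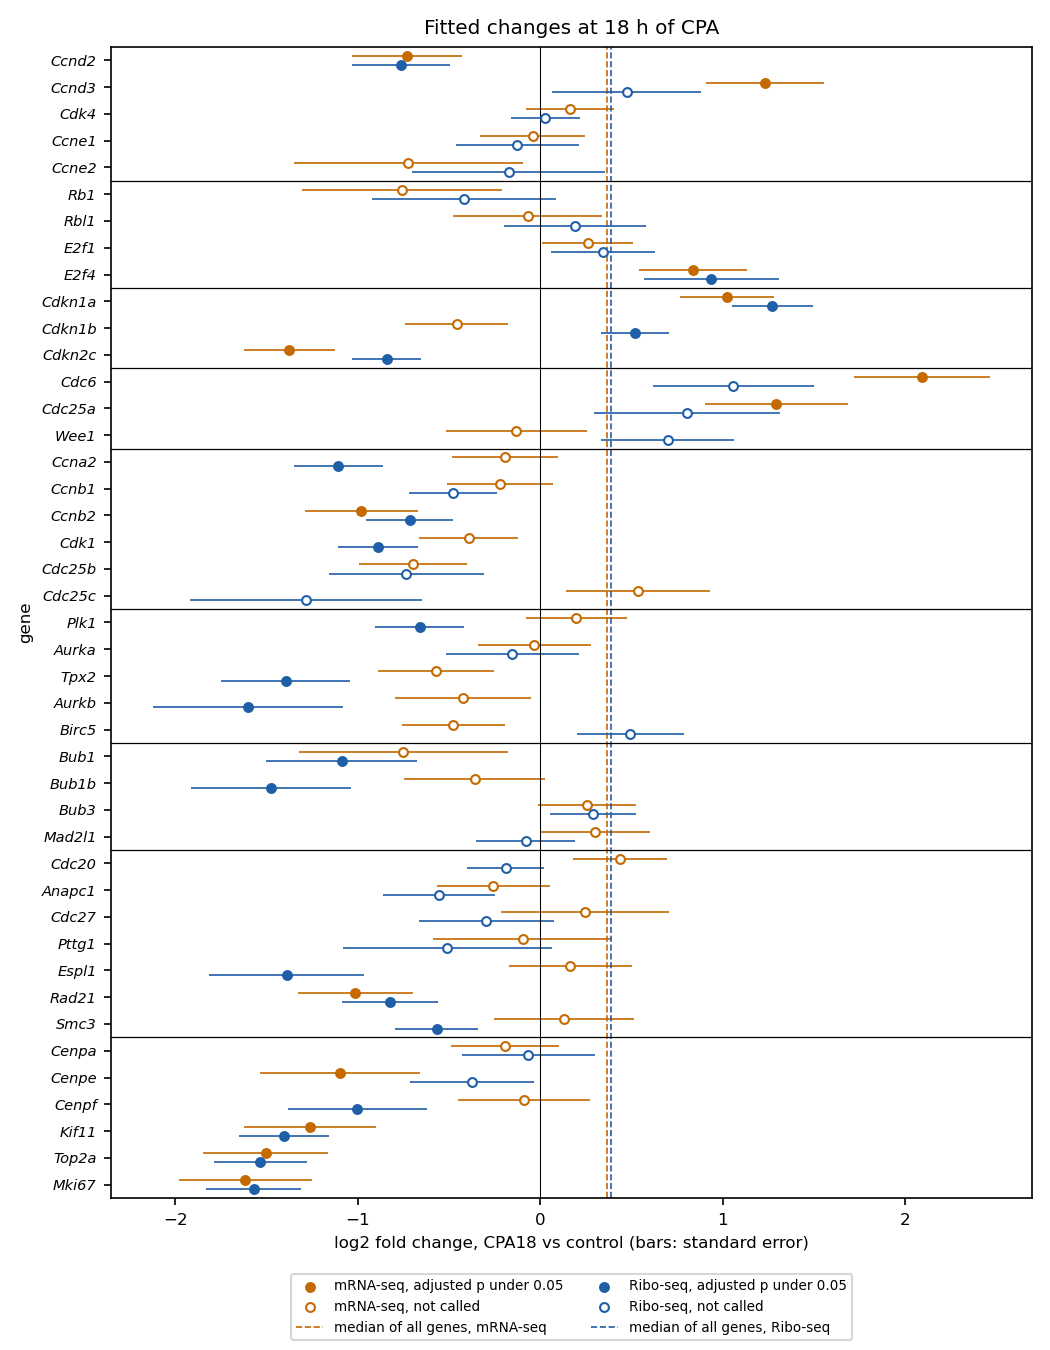
Fitted log2 fold change from control to CPA18 with its standard error for 43 genes in mRNA-seq (orange) and Ribo-seq (blue). Filled points passed adjusted p under 0.05, lines between gene groups separate the roles, and the dashed lines are the medians of all genes at 0.36 and 0.39. Of the 43 Ribo-seq points, 35 lie left of the dashed line of that assay.

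The mitotic cyclins and Cdk1 were lower in footprints, with 3 of 6 genes called lower and none higher, where 6.35% of all genes fell. Only Ccnb2 was called in mRNA-seq among these 6. Cdk1, the kinase that drives mitosis, had footprints of 49.7, 59.4 and 53.3 in control, 58.7, 60.7 and 43.8 in CPA1 and 34.1, 16.9 and 33.5 RPKM in CPA18. All CPA18 values were below all control values, and CPA1 overlapped control. Its fitted log2 fold change was -0.89 ± 0.22 (SE), adjusted p = 4.6e-04. In mRNA-seq Cdk1 was at 26.8, 26.3 and 29.9 in control, 24.7, 19.4 and 37.3 in CPA1 and 12, 25.8 and 26 in CPA18, with all CPA18 values below control and a log2 fold change of -0.39 (adjusted p = 0.26). Ccna2 encodes cyclin A2, which acts in S phase and early mitosis. It had footprints of 52, 39.2 and 72.2 in control, 44.5, 37 and 23.3 in CPA1 and 17.6, 17.5 and 34.8 RPKM in CPA18, with all CPA18 values below all control values. On the log2 scale the change was -1.11 ± 0.24 (SE), adjusted p = 9.0e-05 in Ribo-seq. In mRNA-seq the gene was at 26.7, 18.6 and 19.2 in control, 16.4, 19.6 and 20.5 in CPA1 and 13.8, 19.3 and 22.1 in CPA18, which overlapped control, with -0.19 on the log2 scale (adjusted p = 0.64).

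Ccnb2 encodes cyclin B2, the partner of Cdk1 at the Golgi. Its footprints were at 115, 109 and 107 in control, 65, 69.4 and 70.3 in CPA1 and 73.4, 70.3 and 60.9 RPKM in CPA18, which is lower than control already in CPA1 and in every treated library. The mRNA level was 42.3, 33.5 and 32.1 in control, 27.3, 18.9 and 42.8 in CPA1 and 16.2, 19.4 and 17 in CPA18, lower than control in the 3 CPA18 libraries. The fit gave a log2 fold change of -0.72 ± 0.24 (SE), adjusted p = 0.013 in Ribo-seq and -0.98 ± 0.31 (SE), adjusted p = 0.0095 in mRNA-seq. Cdc25b, a phosphatase that activates Cdk1, was at 10.3, 11.9 and 10.9 in control, 16.9, 11.6 and 8.96 in CPA1 and 3.88, 4.84 and 8.27 RPKM in CPA18 in Ribo-seq, where CPA18 rested on 2, 3 and 14 reads and lay below control. It was at 16.4, 22.6 and 23.6 in control, 17.9, 17.9 and 29.2 in CPA1 and 7.11, 13.7 and 18.7 in CPA18 in mRNA-seq. It did not pass against control in either assay, with log2 fold changes of -0.73 (adjusted p = 0.19) and -0.70 (adjusted p = 0.06). The remaining genes, Ccnb1 (cyclin B1) and the phosphatase Cdc25c, had footprint log2 fold changes of -0.48 and -1.28 without passing the test. Ribo-seq calls were lost for Ccnb2 without experiment 1, 2 or 3 (adjusted p = 0.056, 0.063 and 0.089) and Cdk1 without experiment 2 (adjusted p = 0.10). The mRNA-seq call was lost for Ccnb2 without experiment 1 or 3, or the control libraries of experiment 2 (adjusted p = 0.073, 0.09 and 0.09).

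**Figure D4:**
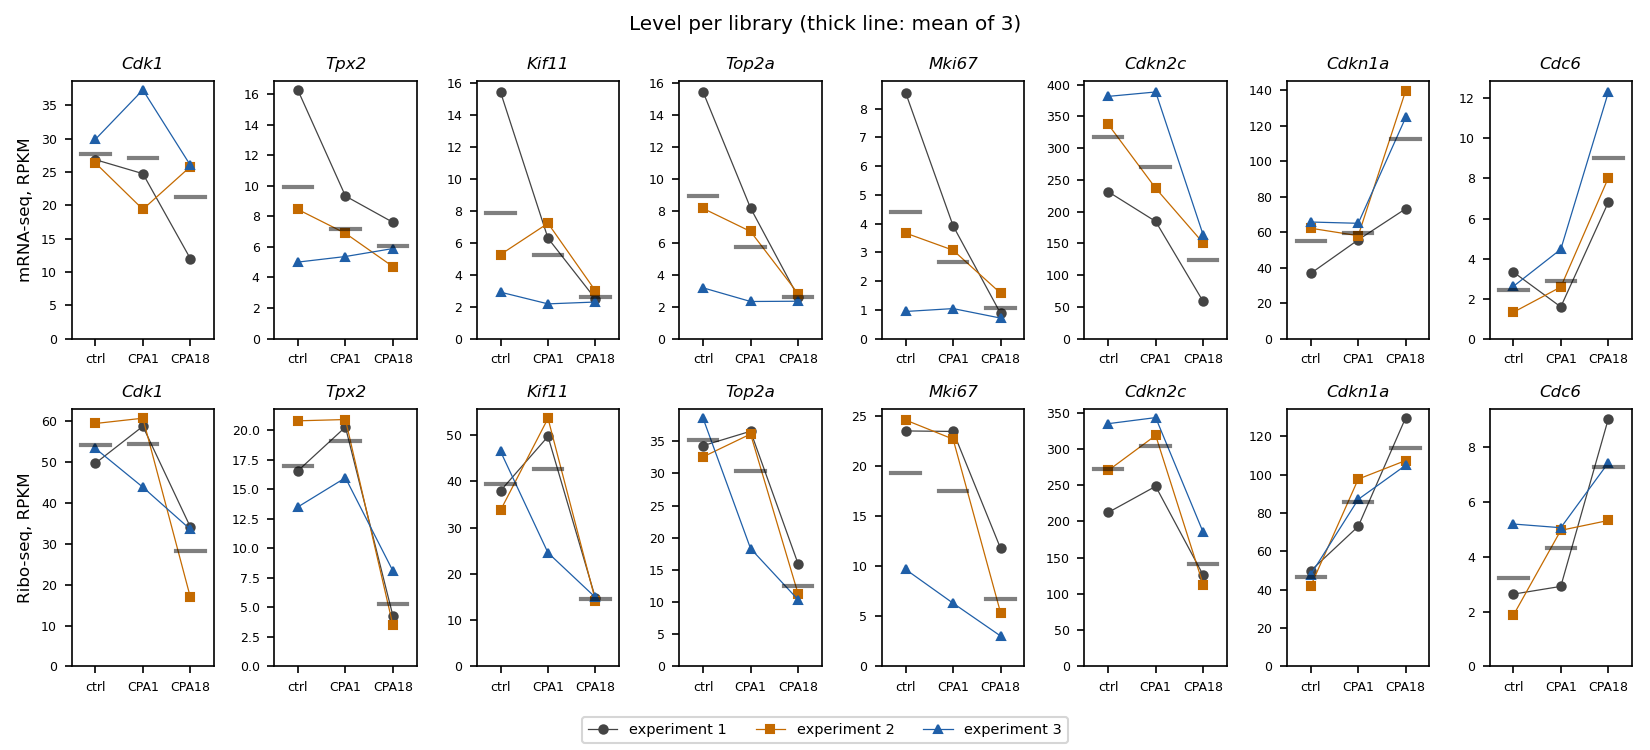
RPKM per library in mRNA-seq (upper row) and Ribo-seq (lower row) for 8 genes in control (ctrl), CPA1 and CPA18, with the 3 experiments joined by lines and the mean as a thick line. The Ribo-seq values of Cdk1, Tpx2, Kif11 and Top2a in CPA18 lie below all control values, and those of Cdkn1a lie above them.

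Of the 5 mitotic kinases and partners, 3 fell in Ribo-seq, where 6.35% of all genes fell, and none was called in mRNA-seq. Tpx2, the spindle factor that activates Aurora A, had footprints of 16.6, 20.8 and 13.5 in control, 20.3, 20.9 and 16 in CPA1 and 4.29, 3.49 and 8.09 RPKM in CPA18. The CPA18 values rested on 3, 3 and 19 reads and lay under all values of the other treatments. CPA18 differed from control by a log2 fold change of -1.39 ± 0.35 (SE), adjusted p = 7.2e-04. Its mRNA was at 16.2, 8.45 and 5.01 in control, 9.33, 6.89 and 5.37 in CPA1 and 7.61, 4.71 and 5.89 in CPA18, lower than control in experiments 1 and 2 and not in experiment 3, with -0.57 on the log2 scale (adjusted p = 0.16). Aurkb, the Aurora kinase of the chromosomal passenger complex, had footprints of 11.1, 13 and 20.5 in control, 14.6, 21.9 and 11.8 in CPA1 and 6.01, 7.46 and 3.65 RPKM in CPA18, on 2, 3 and 4 reads in CPA18, all below control. The log2 fold change was -1.6 ± 0.52 (SE), adjusted p = 0.011, and it was -0.42 in mRNA-seq (adjusted p = 0.40), where Aurkb was at 9.69, 9.52 and 7.97 in control, 8.93, 6.01 and 13.3 in CPA1 and 4.88, 6.26 and 8.42 in CPA18. Plk1, the Polo-like kinase, was at 67.1, 69 and 68.8 in control, 56.6, 74.8 and 52.8 in CPA1 and 35, 35.6 and 52.2 RPKM in CPA18 in Ribo-seq, with all CPA18 values below control. In mRNA-seq the gene was at 23.4, 37.6 and 48.8 in control, 24, 38.2 and 53.2 in CPA1 and 27.6, 48.6 and 47.7 in CPA18, higher in CPA18 than in control in experiments 1 and 2. Its fitted log2 fold change was -0.66 ± 0.24 (SE), adjusted p = 0.026 in Ribo-seq and 0.20 in mRNA-seq (adjusted p = 0.62). Aurka (Aurora A) and Birc5 (survivin, a passenger protein) had footprint log2 fold changes of -0.15 and 0.49 and did not pass. Ribo-seq calls were lost for Plk1 without experiment 1 or 2, or the control libraries of experiment 2 (adjusted p = 0.15, 0.18 and 0.057), Tpx2 without experiment 2 (adjusted p = 0.06) and Aurkb without experiment 3 (adjusted p = 0.41). When transcripts rather than genes were filtered for a read in every library, the call of Tpx2 was lost as well (adjusted p = 0.44).

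In the spindle checkpoint Bub1b and Bub1 fell in Ribo-seq, and Bub3 and Mad2l1 were not called in any comparison. Bub1b encodes BubR1, a core of the mitotic checkpoint complex. It was at 14.3, 9.09 and 11.1 in control, 16.8, 11.1 and 10.4 in CPA1 and 3.24, 1.34 and 5.41 RPKM in CPA18 in Ribo-seq, on 2, 1 and 11 reads in CPA18. All 3 values were below those of control, and the log2 fold change was -1.47 ± 0.44 (SE), adjusted p = 0.005. The mRNA level was 4.71, 4.64 and 3.85 in control, 3.16, 3.06 and 6.05 in CPA1 and 2.63, 3.5 and 3.64 in CPA18, where CPA18 was also below control, with -0.36 on the log2 scale (adjusted p = 0.50). Bub1, the kinetochore kinase, had footprints of 11.8, 7.94 and 9.58 in control, 23.1, 12.9 and 4.41 in CPA1 and 2.74, 4.54 and 4.58 RPKM in CPA18, and CPA1 spread from below to above control. On the log2 scale the change was -1.09 ± 0.42 (SE), adjusted p = 0.033. In mRNA-seq Bub1 was at 3.1, 0.841 and 0.67 in control, 1.27, 0.762 and 0.244 in CPA1 and 0.928, 0.873 and 0.385 in CPA18, with -0.75 (adjusted p = 0.32). Bub3 and Mad2l1, which bind BubR1 and Cdc20, had footprint log2 fold changes of 0.29 and -0.08. Both lay above the median of the 43 genes and below that of all genes at 0.39. The 2 Ribo-seq calls were lost for Bub1 without experiment 1, 2 or 3 (adjusted p = 0.18, 0.073 and 0.09) and Bub1b without experiment 1 or 2 (adjusted p = 0.051 and 0.053).

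Of 7 genes of the APC/C, separase and cohesin, 3 fell in Ribo-seq and 1 in mRNA-seq, where 6.35% and 7.69% of all genes fell. Espl1 is separase, the protease that cuts cohesin. Its footprint level was 9.87, 6.79 and 5 in control, 5.5, 4.98 and 3.2 in CPA1 and 3.58, 1.47 and 2.44 RPKM in CPA18, with CPA18 below control and below CPA1 within each experiment. Its mRNA was at 3.17, 3.56 and 3.74 in control, 3.39, 2.18 and 4.36 in CPA1 and 1.82, 4.39 and 5.34 in CPA18, where only experiment 1 was lower in CPA18. The fit gave a log2 fold change of -1.39 ± 0.43 (SE), adjusted p = 0.0064 in Ribo-seq and 0.16 in mRNA-seq (adjusted p = 0.74). Rad21, the cohesin subunit that separase cuts, was at 37.6, 28.4 and 37.1 in control, 36.1, 28.8 and 22.2 in CPA1 and 24.6, 17.6 and 17.4 RPKM in CPA18 in Ribo-seq and fell in both assays. In mRNA-seq the gene was at 25.9, 9.71 and 6.97 in control, 13.1, 10.6 and 5.09 in CPA1 and 8.87, 6.14 and 3.98 in CPA18. CPA18 differed from control by a log2 fold change of -0.82 ± 0.26 (SE), adjusted p = 0.0099 in Ribo-seq and -1.01 ± 0.32 (SE), adjusted p = 0.0085 in mRNA-seq. Smc3, an arm of the cohesin ring, was at 36.2, 38.6 and 33.9 in control, 35, 33.1 and 23.2 in CPA1 and 28.2, 21.3 and 23.1 RPKM in CPA18 in Ribo-seq, with all CPA18 values below control. In mRNA-seq it was at 8.31, 3.38 and 1.46 in control, 4.4, 4.9 and 2.5 in CPA1 and 1.99, 5.9 and 3.21 in CPA18, with experiment 1 lower and the others higher in CPA18. The log2 fold change was -0.57 ± 0.23 (SE), adjusted p = 0.045 in Ribo-seq and 0.13 in mRNA-seq (adjusted p = 0.82).

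The APC/C subunits Anapc1 and Cdc27, the activator Cdc20 and the securin Pttg1 were not called at 18 h, with footprint log2 fold changes of -0.56, -0.30, -0.19 and -0.51. In the group of separase and cohesin, Ribo-seq calls were lost for Espl1 without experiment 2 (adjusted p = 0.078), Rad21 without experiment 3 (adjusted p = 0.14) and Smc3 without experiment 1, 2 or 3, or the control libraries of experiment 2 (adjusted p = 0.084, 0.27, 0.096 and 0.14). The mRNA-seq call was lost for Rad21 without experiment 1 or 3 (adjusted p = 0.097 and 0.069).

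The 3 CDK inhibitors moved apart. Cdkn1a (p21), which holds back G1 and S-phase kinases, was at 49.9, 41.9 and 47.9 in control, 73, 97.6 and 87.1 in CPA1 and 129.7, 107 and 105 RPKM in CPA18 in Ribo-seq. Footprints were higher than control in every treated library. The mRNA level was 36.8, 62.2 and 65.7 in control, 55.7, 58 and 65 in CPA1 and 73.2, 139.7 and 125 in CPA18, above control in CPA1 in experiment 1 alone and above it in all CPA18 libraries. The log2 fold change in CPA18 was 1.27 ± 0.22 (SE), adjusted p = 3.8e-07 in Ribo-seq and 1.02 ± 0.26 (SE), adjusted p = 0.0011 in mRNA-seq. Cdkn2c (p18, an INK4 inhibitor of Cdk4 and Cdk6) had the highest control level per length of the 43 genes in each assay. Its footprints were at 212, 270.2 and 335 in control, 248, 319 and 343 in CPA1 and 126, 113 and 185 RPKM in CPA18, overlapping between control and CPA1 and lower in all CPA18 libraries. Its mRNA was at 231, 337 and 382 in control, 185, 237 and 388 in CPA1 and 58.6, 151 and 163 in CPA18, again below all other libraries in CPA18. Its fitted log2 fold change was -0.84 ± 0.19 (SE), adjusted p = 9.7e-05 in Ribo-seq and -1.37 ± 0.25 (SE), adjusted p = 4.9e-06 in mRNA-seq. Cdkn1b (p27) rose in Ribo-seq, from values of 92.2, 102 and 95.2 in control, 147, 130.3 and 123 in CPA1 and 153, 159.7 and 112 RPKM in CPA18. In mRNA-seq it was at 71.8, 31.9 and 19.3 in control, 43.1, 31.9 and 21.7 in CPA1 and 35.8, 29 and 16.4 in CPA18, lower in CPA18 than in control within each experiment. On the log2 scale the change was 0.52 ± 0.19 (SE), adjusted p = 0.024 in Ribo-seq and -0.46 in mRNA-seq (adjusted p = 0.21). The Ribo-seq call of Cdkn1b was lost under all 4 other scalings, and for Cdkn1b without experiment 1 or 2, or the control libraries of experiment 2 (adjusted p = 0.21, 0.17 and 0.088). The mRNA-seq call was lost for Cdkn1a without experiment 3 (adjusted p = 0.052).

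Of 3 tested genes of S-phase entry, 2 rose in mRNA-seq, where 25.9% of all genes rose, and none was called in Ribo-seq. Cdc6, which loads the replicative helicase at origins, had mRNA of 3.33, 1.32 and 2.61 in control, 1.59, 2.58 and 4.46 in CPA1 and 6.8, 8.02 and 12.3 RPKM in CPA18, with every CPA18 value above all others. Its footprint level was 2.64, 1.87 and 5.2 in control, 2.92, 4.97 and 5.07 in CPA1 and 9.03, 5.33 and 7.43 in CPA18, also above control in CPA18, on 5 to 19 reads. The fit gave a log2 fold change of 2.09 ± 0.37 (SE), adjusted p = 4.2e-06 in mRNA-seq, the largest rise of the 43 genes there, and 1.06 in Ribo-seq (adjusted p = 0.052). Cdc25a, the phosphatase that activates Cdk2, was at 2.63, 2 and 2.62 in control, 4.02, 2.36 and 3.33 in CPA1 and 5.3, 5.43 and 6.72 RPKM in CPA18 in mRNA-seq, where all CPA18 values were the highest. Its footprints were at 1.34, 3.54 and 2.79 in control, 1.59, 3.5 and 4.08 in CPA1 and 6.54, 2.7 and 4.96 in CPA18, on 2 to 10 reads in CPA18, and overlapped control. CPA18 differed from control by a log2 fold change of 1.29 ± 0.39 (SE), adjusted p = 0.0069 in mRNA-seq and 0.80 in Ribo-seq (adjusted p = 0.23). Wee1, which restrains Cdk1, had log2 fold changes of -0.13 and 0.70 in mRNA-seq and Ribo-seq and did not pass. The mRNA-seq call was lost for Cdc25a without experiment 2 or 3, or the control libraries of experiment 2 (adjusted p = 0.088, 0.11 and 0.059).

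Cyclins D2 and D3 moved in opposite directions in mRNA-seq. Ccnd2 was at 20.7, 13.6 and 29.1 in control, 19.7, 8.38 and 24.7 in CPA1 and 17.5, 5.12 and 16.6 RPKM in CPA18 in Ribo-seq, lower in CPA18 than in control within each experiment though the groups overlapped. In mRNA-seq the gene was at 16.6, 7.8 and 7.19 in control, 11.9, 8.02 and 7.05 in CPA1 and 7.67, 6.27 and 4.05 in CPA18. The log2 fold change was -0.76 ± 0.27 (SE), adjusted p = 0.019 in Ribo-seq and -0.73 ± 0.30 (SE), adjusted p = 0.049 in mRNA-seq. Ccnd3 had mRNA of 2.78, 19.6 and 18.6 in control, 6.53, 15.4 and 21.7 in CPA1 and 12.5, 32.6 and 52.2 RPKM in CPA18, on 3 reads in the control library of experiment 1, and was higher in CPA18 than in control within each experiment. Its footprint level was 11.3, 9.34 and 14.3 in control, 10.1, 7.53 and 5.33 in CPA1 and 25.3, 14.3 and 13.2 in CPA18. Its fitted log2 fold change was 1.23 ± 0.32 (SE), adjusted p = 0.0016 in mRNA-seq and 0.47 in Ribo-seq (adjusted p = 0.40). Cdk4, their kinase and second in control level per length in each assay, had log2 fold changes of 0.03 and 0.16 in Ribo-seq and mRNA-seq. Ccne1 and Ccne2, the E cyclins, had -0.13 and -0.17 in Ribo-seq, without a call in either assay. The Ribo-seq call was lost for Ccnd2 without experiment 2 or 3, or the control libraries of experiment 2 (adjusted p = 0.17, 0.18 and 0.13). The mRNA-seq calls were lost for Ccnd2 without experiment 1 or 3, or the control libraries of experiment 2 (adjusted p = 0.21, 0.28 and 0.079) and Ccnd3 without experiment 3 (adjusted p = 0.12).

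Of the pocket proteins and E2F factors, E2f4, a repressor E2F that acts with them in resting cells, was the only one called. The mRNA level was 24.7, 21 and 30.8 in control, 17.8, 14.7 and 27.4 in CPA1 and 31, 50.3 and 52.5 RPKM in CPA18 and its footprints at 10.2, 12.8 and 14.6 in control, 14.3, 3.78 and 12.6 in CPA1 and 20.6, 21.9 and 29.4 in CPA18. CPA18 exceeded control in all libraries of each assay. On the log2 scale the change was 0.84 ± 0.29 (SE), adjusted p = 0.02 in mRNA-seq and 0.94 ± 0.37 (SE), adjusted p = 0.041 in Ribo-seq. With the libraries centred on the median gene neither call was kept, as with TMM. Rb1 and Rbl1, the pocket proteins, and E2f1, an activating E2F, had log2 fold changes of -0.42, 0.19 and 0.34 in Ribo-seq and were not called. The calls of E2f4 were lost in Ribo-seq for E2f4 without experiment 1, 2 or 3 (adjusted p = 0.12, 0.091 and 0.25), and in mRNA-seq for E2f4 without experiment 2 or 3, or the control libraries of experiment 2 (adjusted p = 0.17, 0.17 and 0.16).

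CPA18 was also set against CPA1, a comparison that shares its CPA18 libraries with the one against control. In Ribo-seq 10 of the 43 genes were lower in CPA18 than in CPA1 and 1 was higher, where 5.52% of all genes were lower and 17% higher. The steepest were Aurkb at -1.69 ± 0.55 (SE), adjusted p = 0.015, Bub1b at -1.63 ± 0.46 (SE), adjusted p = 0.0037 and Tpx2 at -1.58 ± 0.36 (SE), adjusted p = 2.2e-04 on the log2 scale. Kif11 followed at -1.49 ± 0.26 (SE), adjusted p = 2.7e-07. Bub1, Cenpf, Mki67, Top2a, Cdkn2c and Cdk1 were the other genes that fell, by log2 fold changes from -1.46 to -0.89. E2f4 was the 1 gene that rose, at 1.2 ± 0.42 (SE), adjusted p = 0.023, and it did not pass under any of the 4 other scalings. In Ribo-seq calls were lost for Cdk1 without experiment 2 (adjusted p = 0.15), Aurkb without experiment 2 or 3 (adjusted p = 0.092 and 0.16), Bub1 without experiment 1 (adjusted p = 0.34), Bub1b without experiment 1 or 2 (adjusted p = 0.068 and 0.057), Cenpf without experiment 2 (adjusted p = 0.056) and E2f4 without experiment 2 or 3 (adjusted p = 0.22 and 0.20). For Tpx2, filtering transcripts first lost the call (adjusted p = 0.62). With TMM scaling 18 genes were lower and none higher, against 10.2% and 8.87% of all genes.

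In mRNA-seq 5 genes were lower in CPA18 than in CPA1, namely Cdkn2c, Cdc25b, Kif11, Top2a and Mki67, and 6 were higher, namely Ccnd3, Ccne1, E2f4, Cdkn1a, Cdc6 and Cdc25a. Of all genes, 5.54% were lower and 31.9% higher, so the share of the 43 genes that rose was under that background. Ccne1 mRNA was at 18, 107 and 50.5 in control, 19.3, 26.5 and 46.8 in CPA1 and 22.7, 66.8 and 75.9 RPKM in CPA18 and its footprints at 20.5, 17.6 and 34.7 in control, 26.7, 22.7 and 13.7 in CPA1 and 20.6, 26.8 and 21.4 in CPA18. In experiment 2 its control mRNA exceeded both treatments. The log2 fold change from CPA1 was 0.72 ± 0.29 (SE), adjusted p = 0.04 for Ccne1 and 1.68 ± 0.34 (SE), adjusted p = 4.6e-05 for Cdc6. The calls of Ccne1 and Cdc25a did not pass under any of the 4 other scalings, and those of Ccnd3 and Cdkn1a passed under 1 of the 4. Among the genes that fell, Cdkn2c stood at -1.12 ± 0.25 (SE), adjusted p = 1.5e-04 and Mki67 at -1.14 ± 0.36 (SE), adjusted p = 0.0093. With TMM scaling 18 genes were lower and 2 higher, against 16.6% and 12.6% of all genes. Without the experiment as a block none of these 11 calls remained, with adjusted p-values of 0.083 to 0.41. Leaving libraries out, calls were lost for Ccnd3 without experiment 3 (adjusted p = 0.085), Ccne1 without experiment 2 or 3 (adjusted p = 0.22 and 0.19), Cdkn1a without experiment 3 (adjusted p = 0.11), Cdc25a without experiment 2 or 3, or the control libraries of experiment 2 (adjusted p = 0.30, 0.23 and 0.065), Cdc25b without experiment 1 or 3, or the control libraries of experiment 2 (adjusted p = 0.22, 0.15 and 0.053), Kif11 without experiment 1 or 2, or the control libraries of experiment 2 (adjusted p = 0.14, 0.42 and 0.057), Top2a without experiment 1 or 2 (adjusted p = 0.14 and 0.22) and Mki67 without experiment 1 (adjusted p = 0.10).

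After 1 h of CPA 3 of the 43 genes were called in Ribo-seq and none in mRNA-seq. In mRNA-seq none of the 43 was called by edgeR, by DESeq2 or by limma, 1 (Ccne1, log2 fold change -0.76) had an unadjusted p under 0.05, and 0.719% of all genes were called (0.449% higher, 0.269% lower). In Ribo-seq 1 rose and 2 fell, where 3.72% of all genes rose and 2.78% fell. Cdkn1a rose by 0.88 ± 0.21 (SE), adjusted p = 0.0018 on the log2 scale. Ccnb2 fell, at -0.69 ± 0.22 (SE), adjusted p = 0.031, with all treated libraries below all control libraries. Anapc1, the largest APC/C subunit, fell at -0.89 ± 0.28 (SE), adjusted p = 0.034, from footprint levels of 10.7, 8.28 and 7.51 in control, 5.59, 5.4 and 3.32 in CPA1 and 5.31, 4.39 and 6.65 RPKM in CPA18. In mRNA-seq Anapc1 was at 4.5, 4.34 and 3.2 in control, 3.88, 2.8 and 2.83 in CPA1 and 4.58, 3.17 and 2.6 in CPA18. Calls were lost for Cdkn1a without experiment 2, or the control libraries of experiment 2 (adjusted p = 0.17 and 0.08), Ccnb2 without experiment 1, 2 or 3, or the control libraries of experiment 2 (adjusted p = 0.25, 0.18, 0.054 and 0.13) and Anapc1 without experiment 1, 2 or 3, or the control libraries of experiment 2 (adjusted p = 0.22, 0.10, 0.16 and 0.15). Without the experiment as a block, Cdkn1a kept its call and Ccnb2 and Anapc1 had adjusted p-values of 0.097 and 0.11.

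Ribosome occupancy was compared to test whether footprints moved apart from mRNA. In the fit of both assays together none of the 43 genes was called in any of the 3 comparisons, and DESeq2 and limma called none either, where 0.0898%, 0.462% and 0.077% of all genes were called by edgeR for CPA1 against control, CPA18 against control and CPA18 against CPA1. The edgeR fit did not call Ddit3 either, at 2.27 ± 0.55 (SE), adjusted p = 0.061 in CPA1 and 1.69 ± 0.54 (SE), adjusted p = 0.17 in CPA18 against control. The absence of calls among the 43 genes therefore does not show that their footprints followed their mRNA. At an unadjusted p under 0.05 there were 2 genes in CPA1 against control, 6 in CPA18 against control and 5 in CPA18 against CPA1, where 7.03%, 9.01% and 5.68% of all genes had such a p. The 2 of 43 genes in CPA1 against control are a smaller share than that of all genes. The 2 were Cdkn1a at 0.73 and Cdkn1b at 0.66 on the log2 scale. The 5 were Cdc25c at -1.81, Bub1 at -1.59, Cenpf at -1.58, Tpx2 at -1.39 and Bub1b at -1.36. Cdkn1b stood highest among the 6, with a log2 change of occupancy of 0.98 ± 0.32 (SE), adjusted p = 0.23. Birc5 was at 0.97, and Ccna2, Plk1, Espl1 and Cdc25c were at -0.95, -0.88, -1.58 and -1.84. Their adjusted p-values were 0.43, 0.43, 0.43, 0.27 and 0.45. The median change of occupancy over the 43 genes was -0.15 against 0.03 for all genes in CPA18 against control. By experiment it was 0.47, -0.48 and -0.47, where all genes had 0.51, -0.12 and -0.24. Experiment 1 thus went the other way from experiments 2 and 3, both in the 43 genes and in the transcriptome.

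Other genes of the cell cycle were called in both directions. Of 161 further genes in 7 lists, 128 were tested. In Ribo-seq in CPA18 against control 15 fell and 19 rose, or 11.7% and 14.8%, where 6.35% of all genes fell and 24.6% rose. In mRNA-seq 10 fell and 20 rose, or 7.81% and 15.6%, where 7.69% of all genes fell and 25.9% rose. Other cohesin and condensin genes had 4 of 18 lower and 1 higher in Ribo-seq, led by Esco2, which acetylates cohesin, at -1.4 ± 0.53 (SE), adjusted p = 0.03, and Smc2, a condensin arm, at -1.19 ± 0.24 (SE), adjusted p = 1.8e-05. Other spindle and cytokinesis genes had 5 of 21 lower and 1 higher in Ribo-seq, among them the ring protein Anln at -2.0 ± 0.41 (SE), adjusted p = 2.4e-05 and the kinesin Kif20a at -1.01 ± 0.25 (SE), adjusted p = 6.1e-04. Of 17 other kinetochore and checkpoint genes, 2 fell, Knl1 at -1.6 ± 0.51 (SE), adjusted p = 0.0091 and Spc25 at -0.97 ± 0.21 (SE), adjusted p = 5.2e-05.

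Other cyclins, kinases and regulators had 9 of 29 higher and none lower in Ribo-seq, where 24.6% of all genes rose, with Pkmyt1, an inhibitory kinase of Cdk1, at 2.11 ± 0.44 (SE), adjusted p = 3.4e-05 and Cks1b, a Cdk-binding protein, at 1.93 ± 0.34 (SE), adjusted p = 4.7e-07. In the list of other pocket protein, E2F and MuvB genes 1 of 8 was called in Ribo-seq, Myc, at 2.57 ± 0.42 (SE), adjusted p = 6.2e-08. Of 18 other APC/C and SCF genes, Anapc16 rose at 1.12 ± 0.30 (SE), adjusted p = 0.0014 and Ube2c, the ubiquitin-conjugating enzyme of the APC/C, fell at -0.52 ± 0.21 (SE), adjusted p = 0.042. Other checkpoint and p53 genes had 6 of 17 higher and 3 lower in Ribo-seq, where 24.6% of all genes rose and 6.35% fell. Sesn2, a stress-induced regulator of growth signalling, was at 2.35 ± 0.21 (SE), adjusted p = 2.4e-24 and Trp53 at 1.58 ± 0.30 (SE), adjusted p = 4.3e-06, whereas the kinase Atm was at -1.25 ± 0.36 (SE), adjusted p = 0.0031 and the adaptor Ywhah at -0.8 ± 0.20 (SE), adjusted p = 9.1e-04. At 1 h the antiproliferative gene Btg2 rose by 3.1 ± 0.21 (SE), adjusted p = 2.6e-40 in Ribo-seq, and Gadd45a by 1.07 ± 0.25 (SE), adjusted p = 9.9e-04.

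Of the 50 genes, 7 were not tested because a library held none of their reads. Ccnd1 (cyclin D1) had 6 reads in all, in 4 of the 9 mRNA-seq libraries, and none in Ribo-seq. Its mRNA reads were 1, 0 and 0 in control, 0, 2 and 1 in CPA1 and 0, 2 and 0 in CPA18. Cdk6 had no read in 6 libraries, and its reads were 3, 8 and 0 in control, 3, 4 and 6 in CPA1 and 2, 17 and 2 in CPA18 in mRNA-seq and 1, 2 and 1 in control, 0, 0 and 0 in CPA1 and 1, 0 and 0 in CPA18 in Ribo-seq. Ccnd2, Ccnd3 and Cdk4 were read in all 18 libraries. Cdk2, the kinase of cyclins E and A, had reads of 8, 9 and 15 in control, 8, 6 and 8 in CPA1 and 0, 4 and 4 in CPA18 in Ribo-seq and 6, 28 and 34 in control, 12, 15 and 28 in CPA1 and 6, 68 and 19 in CPA18 in mRNA-seq. The activating factor E2f3 had 1, 3 and 5 in control, 0, 2 and 3 in CPA1 and 2, 2 and 2 in CPA18 in Ribo-seq and 2, 1 and 6 in control, 3, 3 and 6 in CPA1 and 0, 16 and 3 in CPA18 in mRNA-seq. Chek1, the checkpoint kinase of replication stress, had reads of 8, 4 and 8 in control, 13, 5 and 7 in CPA1 and 0, 7 and 14 in CPA18 in Ribo-seq and 3, 7 and 5 in control, 9, 6 and 2 in CPA1 and 7, 16 and 3 in CPA18 in mRNA-seq. Ttk, the checkpoint kinase Mps1, had 15, 12 and 29 in control, 6, 7 and 6 in CPA1 and 1, 0 and 8 in CPA18 in Ribo-seq and 10, 5 and 3 in control, 2, 4 and 4 in CPA1 and 1, 7 and 2 in CPA18 in mRNA-seq. Kif23, the cytokinesis kinesin, had 5, 11 and 8 in control, 6, 5 and 3 in CPA1 and 2, 2 and 1 in CPA18 in Ribo-seq and 2, 1 and 0 in control, 5, 1 and 1 in CPA1 and 1, 6 and 1 in CPA18 in mRNA-seq.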

How the data were processed

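MIN6 cells were profiled in 3 treatments, 2 assays and 3 independent experiments, named batches in the labels. The authors kept reads by quality and length, mapped the remainder to RefSeq RNAs of GRCm38 using Bowtie2 (version of the aligner not given in the sources used here) and deposited a read count and an RPKM value (reads per kilobase of transcript, scaled to aligned reads) per RefSeq transcript. The labels of the control libraries of experiment 2 name different assays in title and description; the title was followed, which matches the headings of the deposited count tables. RPKM covers the whole transcript, UTRs included, also for footprints.

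Counts and RPKM were summed per gene after 30232 of 30741 transcripts were matched to RefSeq symbols with their version and 478 without. How reads shared by transcripts were assigned is not given in the sources used here. The 7794 genes read in every one of the 18 libraries were fitted with edgeR 4.0.16 (quasi-likelihood, library size the total count, experiment as block). Changes of ribosome occupancy were the interaction of assay and treatment over 18 libraries, with a block per experiment and assay. Benjamini-Hochberg adjustment ran over all 7794 genes (threshold 0.05), and SE is the log2 fold change divided by the root of F. The labels place same-numbered libraries in a shared batch, so they were paired. Deviations from the group means correlated with a mean r of 0.567 over 9 pairs in mRNA-seq (0.113 to 0.757) and of 0.139 in Ribo-seq (0.083 to 0.187).

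The 50 genes, their roles and the other lists were chosen with earlier results of these data known. Values per library are given for genes called in at least 1 of 9 comparisons or without a read in some library, and at most 2 genes per direction are named from other lists. DESeq2 1.42.0 and limma 3.58.1, on log2(RPKM + 0.5) and log2(RPKM + 1), were among 14 alternatives, and 2 more were chosen after seeing the data. The fits were run on simulated counts that held no differences between experiments and no shift in Lars2 or insulin reads. That simulation therefore cannot bear on calls that depend on the experiment block or the scaling. Promoters were matched by symbol.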

Additional observations from a re-analysis of the deposited data

How the results depend on the processing

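Every call kept its direction under all 16 alternatives that gave a value. In Ribo-seq the calls of Ccna2, Cdkn1a, Cdkn2c, Kif11, Mki67 and Top2a for CPA18 against control, and of Cdkn2c, Kif11, Mki67 and Top2a for CPA18 against CPA1, held under all of them. In mRNA-seq, CPA18 against control called 13 genes, but 0 without the experiment block, 22 with TMM, 21 with libraries centred on the median gene, 2 without the block on totals without Ins1, Ins2 and Lars2, and 5 to 10 when libraries were left out. CPA18 against CPA1 in mRNA-seq called 11 genes, but 0 without the block, 20 with TMM, 19 when centred, 6 with limma at either pseudocount, 7 without the detection filter, 7 when GC and length entered as an offset, 2 without the block on the reduced totals, and 6 to 9 with libraries left out. In Ribo-seq, CPA1 against control called 3 genes, but 1 without the block on either total, 5 when centred, 1 with limma at either pseudocount, 1 without the detection filter, 1 with the GC and length offset, and 0 to 1 with libraries left out. CPA18 against control in Ribo-seq called 20, but 13 without the detection filter and 8 to 15 with libraries left out. CPA18 against CPA1 in Ribo-seq called 11, but 18 with TMM, 17 when centred and 6 to 12 with libraries left out. The cause of these differences was not tested. Fits that left libraries out also had fewer samples. Shares of all genes called are given only for the main fit and for TMM. The last 2 settings (the offset, and the reduced totals without the block) were chosen after seeing the data. No alternative called a gene of the 43 for ribosome occupancy. The GC content and transcript length were known for all 43 genes and for 7577 of the 7794. The fit without the block changed no other count by more than 1.5 times. Depth is a further limit, with a median of 9 and 8 reads per gene for CPA18 footprints in experiments 1 and 2.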

Other observations

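Among the 43 genes, mRNA levels in control differed between experiments by transcript length. The log2 ratio of control RPKM in experiment 1 to experiment 3 had a Spearman correlation with length of 0.645 over the 43 genes and 0.521 over 7577 genes in mRNA-seq, and of 0.37 and 0.172 in Ribo-seq. The points share 2 libraries each, so the values describe those libraries. Mki67, Top2a, Kif11 and Cenpe, whose transcripts measure 10061, 5221, 4819 and 7910 nucleotides, were each highest in the control mRNA of experiment 1. Lars2 took 45.1% of the reads there and 15.1% in the control of experiment 3. The genes that fell in mRNA-seq in CPA18 had a median length of 5020 nucleotides and those that fell in Ribo-seq 4263, against 2973 for the 43 genes. With an offset for GC content and length, 7 genes fell and 4 rose in mRNA-seq and 12 fell and 3 rose in Ribo-seq for CPA18 against control. The share of all genes called with the offset is not given here. The median log2 fold change was then -0.21 for the 43 genes and 0.35 for all genes in mRNA-seq. In Ribo-seq these medians were -0.35 and 0.39. The part of transcript length in the results was not tested beyond that fit.

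Ribosome occupancy of the 43 genes in control, as the ratio of RPKM, had medians of 1.59, 1.89 and 2.31 in the 3 experiments, above the medians of all genes at 1.37, 1.13 and 1.22. In CPA18 the medians were 2.02, 0.877 and 1.29 for the 43 genes and 1.96, 1.02 and 0.987 for all genes.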
